A study of Rattus norvegicus with 18 samples.

Results

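The comparison described here set the proximal sciatic nerve 3 h after transection against the same stretch of uninjured nerve, in adult male Sprague-Dawley rats. Its members were the 3 arrays labelled 3 h and the 3 arrays labelled 0 h, taken by their titles, 6 of the 18 arrays of a time course with 6 time points. The operated nerve was that of the left hind limb, from which a segment was removed above the point where its 2 main branches part, and the tissue analysed was the short stump on the proximal side. The rats carried no transgene and received no agent apart from the anaesthetic, a mixture of trichloroacetaldehyde monohydrate, magnesium sulfate and sodium pentobarbital. The 0 h nerves served as the uninjured reference. The question was which transcripts of the nerve stump respond within the first hours of injury. Total RNA of each sample was labelled with Cy3 and hybridized to 1 Agilent rat array, and the sources used here do not say whether an array held 1 rat or a pool. The P values below come from a fit to all 18 arrays, so they measure the spread between the samples of the time course only.

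A peripheral nerve holds axons whose cell bodies lie elsewhere, the Schwann cells (SCs) that wrap and myelinate them, fibroblasts, perineurial cells, resident macrophages and vessels. When a nerve is cut, growth factor and stress kinases switch on immediate early transcription factors, and NF-κB, a factor held in the cytoplasm until its inhibitors are degraded, drives chemokine and cytokine genes. Chemokines of the CXC class draw neutrophils out of the blood, those of the CC class draw monocytes, and cytokines of the IL-6 and IL-1 families act on receptors of the resident cells. SCs later leave their myelinating state and become repair cells that secrete trophic factors for the regrowing axons.

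The 6 sequences that follow are the stretches of 200 bases directly before the RefSeq start of the 6 listed genes with the greatest rise at 3 h that had an entry in the promoter table, and they are shown because these genes lead the comparison. The ranking used fitted differences, and Il6 and Mmp8, not above background on any 0 h array, have no exact place in it. Each runs 5′ to 3′ on the strand of its gene, from the RefSeq annotation of the GRCr8 assembly. Capitals mark matches, on either strand, to the NF-κB consensus (κB), to AP-1 (TGANTCA), C/EBP (TTGCNNAA), STAT (TTCNNNGAA) or a TATA box (TATAAA). Il6 lies at chr4:5894576-5894775 on the minus strand, Cxcl2 at chr14:17467256-17467455 on the minus strand, Mmp8 at chr8:13008690-13008889 on the plus strand, Cxcl1 at chr14:17479322-17479521 on the minus strand, Fosl1 at chr1:212183685-212183884 on the plus strand and Il1rl1 at chr9:50203438-50203637 on the plus strand.
Il6: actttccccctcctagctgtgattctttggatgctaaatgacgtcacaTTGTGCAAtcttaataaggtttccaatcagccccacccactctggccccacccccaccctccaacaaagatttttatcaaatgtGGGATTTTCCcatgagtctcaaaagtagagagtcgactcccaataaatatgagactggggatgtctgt
Cxcl2: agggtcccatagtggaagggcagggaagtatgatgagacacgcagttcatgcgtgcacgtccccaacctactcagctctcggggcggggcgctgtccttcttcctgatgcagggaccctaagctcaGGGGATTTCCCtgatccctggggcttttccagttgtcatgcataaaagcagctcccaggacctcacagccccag
Mmp8: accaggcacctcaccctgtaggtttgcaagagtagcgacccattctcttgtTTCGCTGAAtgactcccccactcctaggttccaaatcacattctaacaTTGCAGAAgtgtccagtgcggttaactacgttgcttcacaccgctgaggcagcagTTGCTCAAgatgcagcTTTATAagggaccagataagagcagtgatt
Cxcl1: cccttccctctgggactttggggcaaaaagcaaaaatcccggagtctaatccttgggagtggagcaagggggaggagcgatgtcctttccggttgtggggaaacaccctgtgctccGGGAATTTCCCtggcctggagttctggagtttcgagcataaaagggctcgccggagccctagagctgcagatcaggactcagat
Fosl1: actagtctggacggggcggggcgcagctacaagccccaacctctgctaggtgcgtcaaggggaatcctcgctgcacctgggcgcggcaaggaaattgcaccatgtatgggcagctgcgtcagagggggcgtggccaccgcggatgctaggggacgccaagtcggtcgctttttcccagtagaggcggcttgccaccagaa
Il1rl1: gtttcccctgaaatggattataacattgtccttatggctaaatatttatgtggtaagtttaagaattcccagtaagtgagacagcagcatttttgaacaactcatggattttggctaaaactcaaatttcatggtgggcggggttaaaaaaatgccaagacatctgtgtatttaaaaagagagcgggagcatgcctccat

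Il6, Cxcl2 and Cxcl1 each held a κB match, which 2.87% of the 33469 promoters of the table held. In Il6 it began 68 bases before the start and a C/EBP match 152 bases before it, a motif found in 7.16% of the promoters. The overlapping κB matches of Cxcl2 began 74 and 73 bases before the start and those of Cxcl1 84 and 83 bases before it. Mmp8 held 2 C/EBP matches, a STAT match (6.07% of promoters) and a match to the TATA letters (10.4% of promoters). The last began 30 bases before the start and lay on the strand opposite to the gene. Fosl1 and Il1rl1 held none of the 5 motifs, and no AP-1 match (4.97% of promoters) was found in any of the 6. Of the 25 genes that lead by fold or by lower bound below, 19 had a promoter entry, and κB letters were present in 5 of them, C/EBP in 5, TATA in 5, STAT in 2 and AP-1 in 0. These are matches of letters in a fixed window and say nothing of binding.

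Between 74.3% and 76.9% of probes were well above background on the 0 h arrays and between 70.3% and 82.3% on the 3 h arrays, of which replicate 3 was the highest and lay on a slide of its own. Outlier spots numbered 58 to 82 on the 0 h arrays and 108 to 179 on the 3 h arrays. No spot was saturated, and array pairs of the same time correlated at 0.982 to 0.992 (across probes) against 0.961 to 0.983 for pairs of different times. The 0 h and 3 h arrays shared no slide and were scanned on different days, so that time after injury and scan day cannot be told apart in this comparison. The 1 h and 3 h arrays were scanned on 1 day, and the difference between 3 h and 1 h is therefore given beside the main results. These arrays also shared no slide, so that time and slide cannot be told apart in that difference either. Levels are given as log2 normalized signal, on which 0 is the 75th percentile of an array and a difference of 1 is a 2-fold change. A gene is said to have risen or fallen where limma gave P under 0.01 and a Benjamini-Hochberg adjusted P under 0.05.

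At 3 h, 2099 of 27269 gene names rose (7.7%) and 1926 fell (7.06%), 3 of them by different probes in both directions. Among the 12857 genes with a listed symbol, 1131 rose (8.8%) and 1084 fell (8.43%), and these shares are the background for the gene groups below. The rises were the larger changes: the median rise was 0.89 and the median fall -0.52, 432 listed genes (3.36%) rose at least 2-fold and 99 (0.77%) fell as much, and 138 rose but 4 fell at least 4-fold. Centring the arrays on their median instead of the 75th percentile turned this split to 1445 higher and 2062 lower, 41.2% of the calls higher against 52.1%. The lower calls were also the more numerous with quantile normalization (1785 higher, 2006 lower), in the deposited value table (1769 and 1981), with array weights (2995 and 3084) and without 0 h replicate 1 (1554 and 1753). Of the 6 arrays left out in turn, replicate 2 of either time moved the count of calls most, from 4022 in all to 2319 without the 0 h array and to 2114 without the 3 h array. The rises were also uneven among the 3 h arrays. Of 430 genes that rose at least 2-fold and were measured on all 3 of them, 357 had their lowest 3 h signal on replicate 1.

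The chemokine Cxcl2, a ligand of the neutrophil receptor Cxcr2, headed the 15 largest rises among genes above background on all 6 arrays. Its log2 normalized signals were -5.18, -5.74 and -5.14 at 0 h and 1.88, 2.12 and 2.77 at 3 h, a difference of 7.61 ± 0.25 (SE, adjusted P = 3.44e-10). Cxcl1, a ligand of the same receptor, went from -1.82, -1.79 and -1.64 to 4.14, 4.77 and 4.97, a difference of 6.38 ± 0.20 (adjusted P = 2.69e-10). The third such ligand, Cxcl3, lay at -5.79, -5.23 and -5.27 at 0 h and at -0.01, 0.79 and 1.51 at 3 h (difference 6.19 ± 0.32, adjusted P = 5.31e-08). In these 3 genes every 3 h array stood several log2 units over every 0 h array, and replicate 1 was the lowest of the 3 h arrays in each.

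Fosl1, which encodes the AP-1 subunit Fra-1, and Il1rl1, the receptor of the alarmin IL-33, rose as far. Fosl1 measured -2.96, -3.58 and -3.79 at 0 h and 2.45, 3.20 and 3.03 at 3 h (difference 6.34 ± 0.26, adjusted P = 5.29e-09). Il1rl1 measured -3.82, -3.26 and -4.56 at 0 h and 1.70, 2.51 and 2.93 at 3 h (difference 6.26 ± 0.38, adjusted P = 3.2e-07), whereas its second probe differed by 0.47. The array groups of both genes were far apart. The other leading rises reported here were Ptx3, a pattern recognition protein of the hyaluronan matrix (5.44), S100a9 (5.28) and S100a8 (5.11), which form the neutrophil protein calprotectin, the chemokine Ccl2, described below (5.08), the decoy receptor Il1r2 (4.07), the hyaluronan synthase Has1 (3.83), the IL-1 receptor antagonist Il1rn (3.83), the sphingosine kinase Sphk1 (3.77) and the metallothionein Mt2A (3.77). All 14 of these rises kept their call under each of the 18 alternative settings run.

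**Figure D1:**
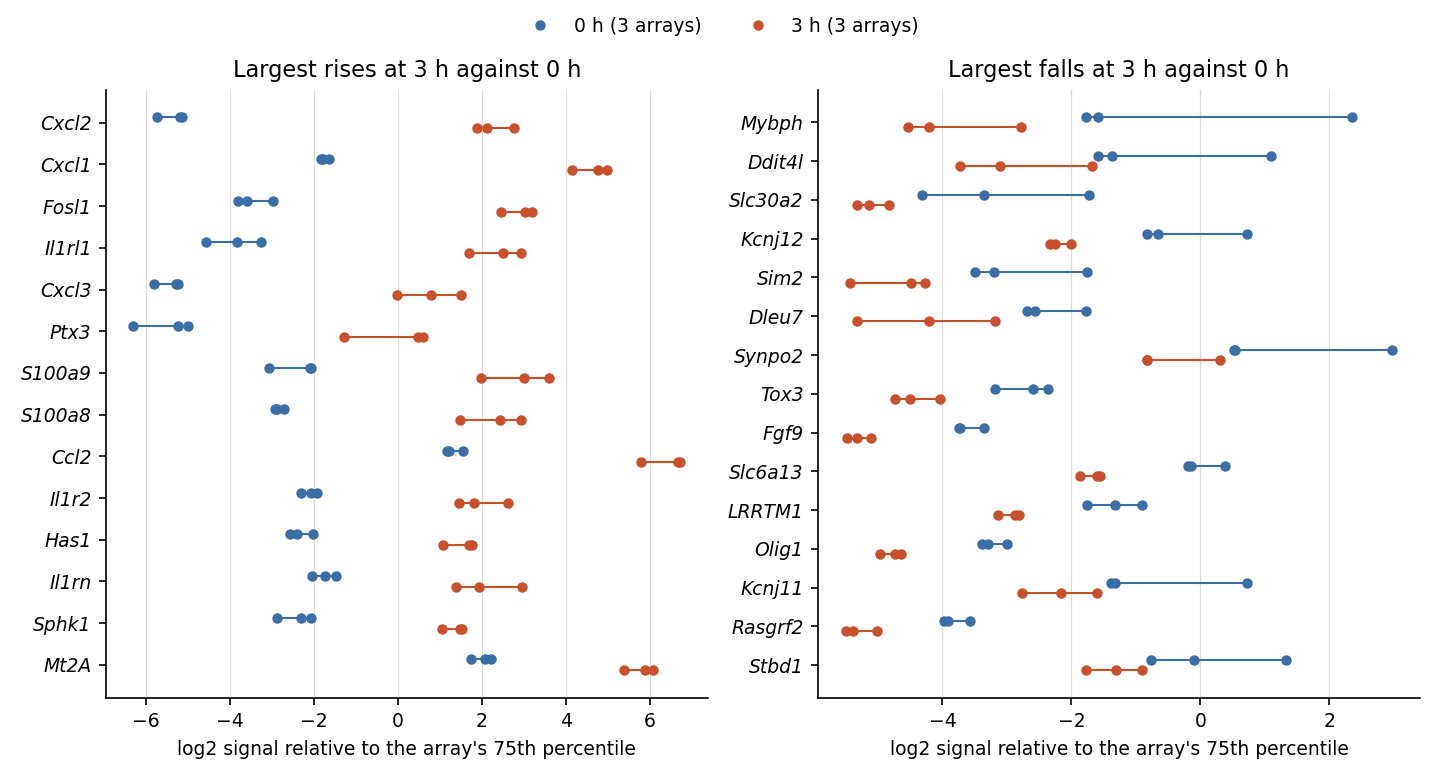
Log2 normalized signal of 14 of the 15 genes with the largest rise and the 15 with the largest fall at 3 h against 0 h, 1 point an array (3 arrays a time). The largest rise, Cxcl2, runs from between -5.74 and -5.14 at 0 h to between 1.88 and 2.77 at 3 h, and the falls are smaller, with Mybph, Ddit4l, Synpo2 and Kcnj11 spread widely at 0 h by replicate 1.

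Further genes were above background on no 0 h array and on all 3 h arrays, so that only a lower bound on the fold can be given, set against the dimmest probe above background of each 0 h array. There were 26 such genes among the called, and 1 called gene had the reverse pattern. Il6, the cytokine of the acute phase, was the most extreme: it measured -8.81, -8.55 and -8.42 at 0 h, not well above background, and 0.03, 0.56 and 0.41 at 3 h, at least 115-fold higher (adjusted P = 1.81e-10). The neutrophil collagenase Mmp8 followed, at least 29.8-fold higher, with -8.46, -8.39 and -8.18 at 0 h and -2.76, -1.62 and -0.45 at 3 h (adjusted P = 1.43e-06). Its 3 h arrays differed more from each other than those of Il6 did.

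The other 8 genes that led by lower bound were Stfa2l2 and Csta, inhibitors of cysteine proteases of the stefin family (at least 19.7-fold and 12.3-fold, with a second probe of Csta at 0.92), the synaptic adhesion protein Lrrtm2 (at least 18.4-fold), the C-type lectin receptors of myeloid cells Clec4d (at least 14.8-fold) and Clec4e (at least 11.9-fold), the antibacterial lectin Reg3g (at least 13.4-fold), and the colony stimulating factors Csf2 (at least 11.5-fold) and Csf3 (at least 11.3-fold), which drive the production and survival of granulocytes and macrophages. Csf3 measured -8.81, -8.51 and -8.62 at 0 h against -3.36, -2.23 and -3.46 at 3 h, and Csf2 -7.61, -7.24 and -6.34 against -3.63, -2.55 and -2.66. No array of one time reached the range of the other in either gene.

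**Figure D2:**
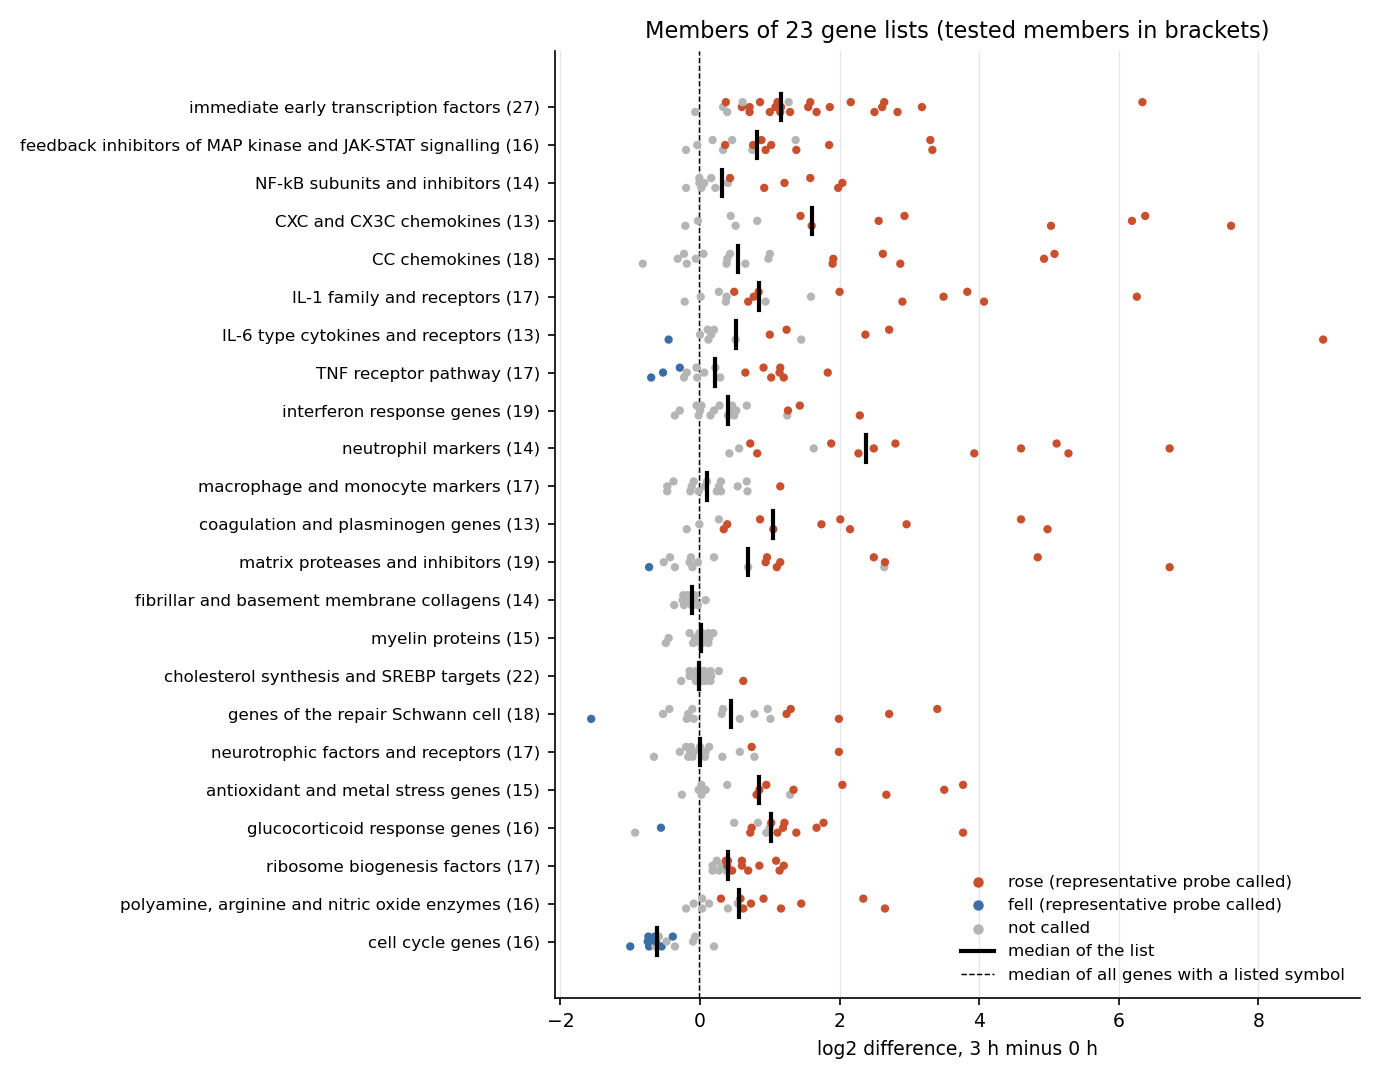
Log2 difference, 3 h minus 0 h, of each tested gene (points) and the median (bar) in 23 gene lists, coloured by whether the probe that stands for the gene rose, fell or was not called. Neutrophil markers (median 2.38), CXC chemokines (1.60) and immediate early transcription factors (1.16) stand to the right of 0, myelin proteins (0.01) at 0 and cell cycle genes (-0.61) to the left.

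Among signalling genes, 22 of 27 immediate early transcription factors had risen and 0 had fallen, with a median difference of 1.16 against -0.02 over all listed genes. Fos, the founding AP-1 subunit, measured -1.60, -0.10 and -1.59 at 0 h and 1.52, 1.86 and 1.83 at 3 h (difference 2.83 ± 0.33, adjusted P = 9e-05). Egr1, a zinc finger factor induced by growth factors, measured 0.97, 2.05 and 0.74 at 0 h and 2.69, 3.51 and 3.15 at 3 h (difference 1.86 ± 0.28, adjusted P = 0.000736). Both were separated between the times, although 0 h replicate 2 stood above its group in each gene.

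Other early factors that had risen were the orphan nuclear receptor Nr4a3 (3.18), the nuclear protein Csrnp1 (2.61), the AP-1 subunit Junb (2.50), Myc, which drives growth genes (2.16), Cebpd, a factor of the acute phase (1.67), and the injury factor Atf3 (1.11). Jun, the partner of Fos in AP-1, did not pass (0.33, adjusted P = 0.192). Under normexp, a background correction by a normal and exponential model, 12 of the 27 were called as risen, where 3% of listed genes were called as higher and 2.31% as lower.

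Feedback inhibitors rose in 9 of 16 cases (median 0.82), with none lower, among them Socs3, which shuts off signalling from the IL-6 receptor (3.33), and Dusp5, a nuclear phosphatase of ERK (3.30). Socs3 measured -4.43, -4.55 and -4.46 at 0 h against -1.66, -0.94 and -0.85 at 3 h, with no overlap. In the NF-κB list 6 of 14 rose (median 0.31), led by the nuclear inhibitors Nfkbiz (2.04) and Bcl3 (1.98), the subunit Rel (1.58) and the cytoplasmic inhibitor Nfkbia (1.21). Of 10 regulators of mRNA decay 6 rose and 1 fell (median 0.41; no fall without 0 h replicate 2 or 3 h replicate 1), with Zfp36, which marks cytokine messages for decay, at 2.81. The normexp correction left 2 rises among the feedback inhibitors and 1 among the decay regulators, and it ended the call of Nfkbia.

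Of 13 CXC and CX3C ligands 8 rose and 1 fell by 1 of its probes (median 1.60), a fall that was lost whichever array was left out, and 7 of 18 CC ligands rose (median 0.54). Ccl2, the chief attractant of monocytes, measured 1.17, 1.23 and 1.55 at 0 h and 5.78, 6.72 and 6.67 at 3 h (difference 5.08 ± 0.23, adjusted P = 1.57e-08). Ccl20, an attractant of lymphocytes and dendritic cells, was above background on no 0 h array and was at least 9.85-fold higher at 3 h. Ccl17, a ligand of Ccr4, rose by 2.87 and Ccl7, a further monocyte attractant, by 2.62. The interferon-inducible Cxcl11 rose by 5.03, with 1 of 3 arrays above background at 0 h. Under the normexp correction 5 of the CXC and 4 of the CC ligands were called as risen, without Ccl20. Of 11 chemokine receptors 1 rose, Cxcr2, at 3.93 (1 of 3 arrays above background at 0 h), and 1 fell, a call lost on leaving out each array except 3 h replicate 3. The receptors that rose numbered 2 without 3 h replicate 1. The 19 interferon response genes stood at a median of 0.40 with 3 that rose, Ifit3, Ifih1 and Irf1, and 1 called without replicate 2 of either time or under the normexp correction.

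In the IL-1 family 10 of 17 genes rose and none fell (median 0.84). The cytokine itself, Il1b, measured -1.40, -2.09 and -0.99 at 0 h and 1.50, 1.74 and 2.74 at 3 h (difference 3.49 ± 0.33, adjusted P = 2.03e-05). The genes that restrain it rose with it: the antagonist Il1rn measured -1.73, -1.46 and -2.04 at 0 h and 1.39, 1.93 and 2.95 at 3 h. The decoy receptor Il1r2 measured -2.07, -2.31 and -1.92 at 0 h and 1.46, 1.81 and 2.63 at 3 h. In all 3 genes the arrays of the times did not overlap, and 3 h replicate 3 was the highest. The signalling receptor Il1r1 (2.0) and its partner chain Il1rap (0.77) were higher as well. The normexp correction left 5 of these rises and ended the call of Il1r1.

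Of 13 IL-6 type cytokines and receptors 5 rose and 1 fell (median 0.51), with no fall without replicate 2 of either time. Beside Il6, the B cell stimulating cytokine Clcf1, a ligand of the CNTF receptor, measured -1.03, -0.96 and -1.07 at 0 h and 1.25, 1.82 and 1.98 at 3 h (difference 2.71 ± 0.17, adjusted P = 4.69e-07). Osmr, the oncostatin M receptor, measured -3.91, -3.80 and -3.67 at 0 h and -1.81, -1.19 and -1.28 at 3 h, a difference of 2.37. Its ranges were tight at 0 h and did not overlap. Il6r, the ligand-binding chain of the IL-6 receptor, rose by 1.00, a call that the normexp correction ended, leaving 3 rises in the list.

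In the TNF receptor pathway 7 of 17 genes rose and 3 fell (median 0.22). The inhibitors of caspase activation Birc3 (1.83), Cflar (1.15) and Birc2 (1.02), the second TNF receptor Tnfrsf1b (1.14) and the kinase Ripk1 (0.91) were higher, and the adaptor Tradd (-0.70) was lower. Tnfrsf1a, the main TNF receptor, was higher by 0.65, but not without 3 h replicate 2, with median centring or in a fit to the 6 arrays alone. The caspase Casp6 was lower (-0.53), but it too was not called in the fit to the 6 arrays alone. The normexp correction ended both calls. The adaptor Traf2 did not pass, at -0.23 with a 95% interval of -0.59 to 0.13, and neither did the nuclear protein Daxx (-0.04, interval -0.36 to 0.27).

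Of 14 tested neutrophil markers 11 rose and none fell (median 2.38), and 6 rose under the normexp correction. The call of the elastase gene Elane, one of the 11, was lost whichever array was left out. S100a9 measured -2.10, -2.07 and -3.06 at 0 h and 1.99, 3.00 and 3.61 at 3 h (difference 5.28 ± 0.42, adjusted P = 3.83e-06), and S100a8 -2.70, -2.87 and -2.92 against 1.48, 2.43 and 2.94. Cxcr2 measured -6.25, -7.75 and -6.80 at 0 h, with 1 array above background, and -3.62, -3.19 and -2.19 at 3 h. Replicate 3 was the highest and replicate 1 the lowest of the 3 h arrays in these 3 genes. The antimicrobial peptide Camp (4.60) and the amplifying receptor Trem1 (2.80) rose as well. The 3 markers that did not pass were the granule genes Ltf and Mpo (0.56) and the selectin ligand Selplg (0.42). Mmp8, Mmp9, Elane and Ltf were above background on no 0 h array, and 8 of the 14 markers were above background on all 0 h arrays, so that the uninjured nerve gave signal for them too. Summed over the list, in units of an array's 75th percentile, the signal was 2.88, 2.84 and 1.80 at 0 h and 10.5, 18 and 26.2 at 3 h. The part of neutrophil RNA in the rises of Il1b, Clec4d, Clec4e and other genes that neutrophils express was not tested. In whole nerve, a change in the number of cells of a type and a change in RNA per cell cannot be told apart.

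The other cell type lists each held fewer called markers than the neutrophil list. Of 17 macrophage and monocyte markers 2 rose (median 0.10), with the endotoxin co-receptor Cd14 at 1.15 (not called under the normexp correction), and 4 rose without 3 h replicate 1. Their summed signal lay between 213 and 250 at 0 h and between 264 and 306 at 3 h. SC markers passed in 0 of 14 cases by limma (median -0.08), with 3 at an unadjusted P under 0.05, all lower, a limit that 16.7% of listed genes passed as lower and 15.6% as higher on 1 probe a gene. They summed to between 863 and 1030 at 0 h and between 768 and 1020 at 3 h. All 14 were above background on all 6 arrays, and 1 or 2 fell without replicate 1 of 0 h or of 3 h. Of 13 endothelial markers 1 rose, the VEGF receptor Flt1, at 1.49 by one of its probes and 0.20 by another, and 1 fell, the sialomucin Emcn (-0.57), which was not called in a fit to the 6 arrays alone. There were 2 rises without replicate 1 of either time and 2 falls without 3 h replicate 3. Of 10 fibroblast markers 2 fell, but 1 without 0 h replicate 1 or 2 or 3 h replicate 2 or 3. Of 8 pericyte markers 3 fell, but 1 without 3 h replicate 2, and Cspg4, the NG2 proteoglycan (-0.56), kept its call whichever array was left out. Of 7 perineurial markers 1 rose and 2 fell, but none rose without replicate 3 of either time, 0 h replicate 1 or 3 h replicate 2, 1 fell without replicate 1 or 2 of either time, and the keratin Krt19 (-1.18) was called in each case.

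Mast cell and adipocyte markers gave 0 calls of 9 and of 8 by limma (medians -0.44 and 0.37, with 3 and 0 at an unadjusted P under 0.05), though 5 mast cell markers fell without 3 h replicate 3 and 1 without 0 h replicate 3, lymphocyte markers 1 of 10 (lost on leaving out each array except 3 h replicate 1) and neuronal markers 1 of 8, the neurofilament Prph, which fell by 0.64. None of the 5 erythroid markers passed by limma (median 1.58). At an unadjusted P under 0.05, 4 of them were higher, against 15.6% of listed genes. Their summed signal ranged between 3.48 and 19.1 at 0 h and between 18 and 64.1 at 3 h, with an overlap.

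**Figure D3:**
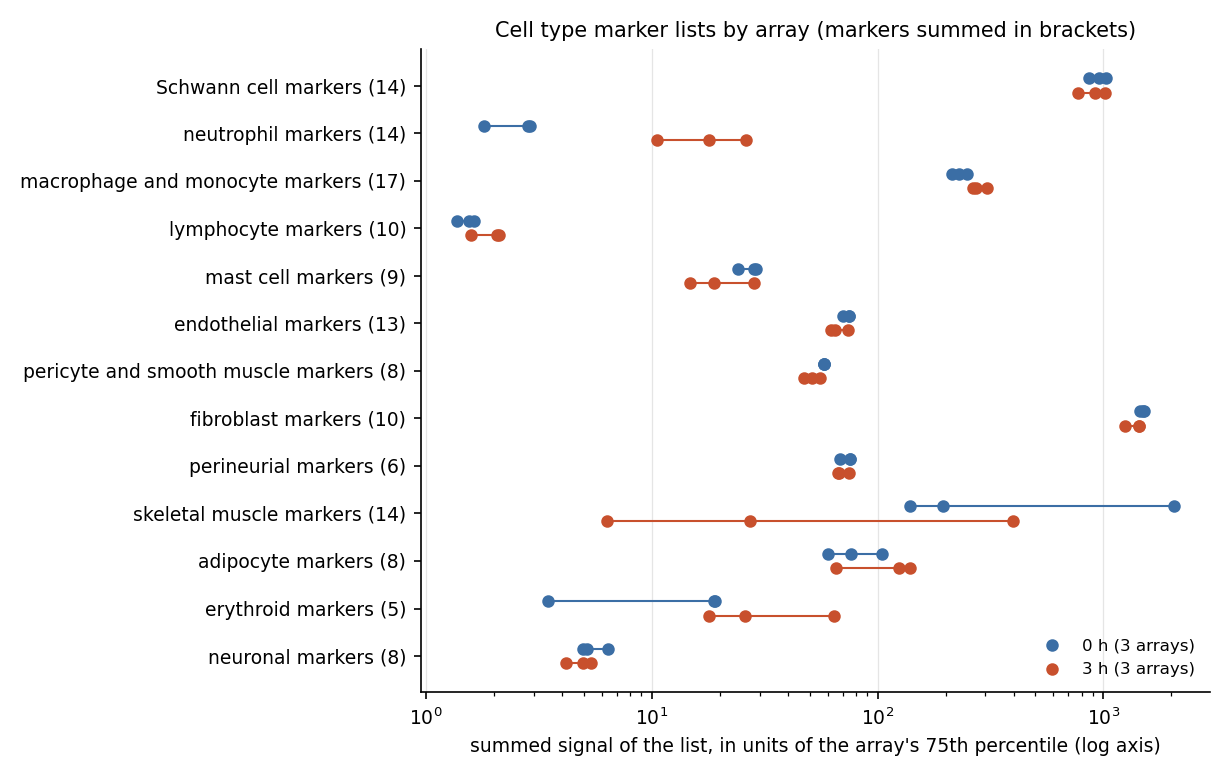
Summed signal of each cell type marker list on each array, in units of the array's 75th percentile on a log axis (points: 3 arrays at 0 h and 3 at 3 h; lines: their range). Neutrophil markers rise from between 1.80 and 2.88 to between 10.5 and 26.2, SC markers overlap between the times, and skeletal muscle markers span 139 to 2050 at 0 h and 6.36 to 399 at 3 h.

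Of 13 coagulation and plasminogen genes 10 rose and none fell (median 1.05). Serpinb2, a plasminogen activator inhibitor, was at least 10.5-fold higher. Plaur, the receptor that holds urokinase at the cell surface, measured -2.53, -2.74 and -3.16 at 0 h against -0.28, 0.22 and 0.51 at 3 h, with no overlap. The thrombospondin Thbs1 (2.15), the tissue factor pathway inhibitor Tfpi2 (2.01) and the protein C receptor Procr (1.74) were higher too. Of 12 selectins and adhesion molecules 3 rose and 2 fell: the endothelial selectin Selp (at least 2.96-fold) and the leukocyte ligand Icam1 (1.34) were among the higher, and Jam2 and F11r of the junctions were lower, F11r not without replicate 1 or 2 of either time. The normexp correction left 6 rises among the coagulation genes and ended the calls of Thbs1, Selp and F11r.

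In the matrix, members of the protease and provisional matrix lists rose, and no collagen did. Of 19 proteases and inhibitors 8 rose and 1 fell (median 0.69), with no fall without replicate 2 of either time and 2 without 0 h replicate 1. The stromelysin Mmp3 measured -6.96, -6.35 and -6.04 at 0 h, with 1 array above background, and -2.19, -1.50 and -1.15 at 3 h, a difference of 4.84. The aggrecanase Adamts1 (2.65) and the inhibitor Timp1 (1.15) rose with it, and 5 of the list rose under the normexp correction. Of 14 provisional matrix genes 5 rose (median 0.35), among them Ptx3, Has1 and the hyaluronan receptor Cd44 (1.12). Of 14 collagens 0 rose by limma and 1 fell by a second probe (median -0.12). At an unadjusted P under 0.05, 2 were lower and 0 higher, against 16.7% and 15.6% of listed genes. The collagen that fell by a second probe was the fibrillar chain Col1a1. Its main probe, which was not called, stood at 8.47, 8.54 and 8.55 at 0 h and 8.50, 8.53 and 8.23 at 3 h.

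No myelin gene passed the test at 3 h. Of the 15, 0 were called by limma and their median difference was 0.01, and 1 fell without 3 h replicate 1. At an unadjusted P under 0.05, 1 was lower, against 16.7% of listed genes. Cholesterol synthesis genes, which serve myelin lipid, gave 1 rise of 22 (median -0.01), 0 without 0 h replicate 2 or 3 or 3 h replicate 2 and 2 without 3 h replicate 3. Of 14 SC transcription factors 1 rose, Egr2, the driver of myelination (1.08, not called under the normexp correction), and 1 fell, Etv5 (-0.63), against 3 falls without 0 h replicate 1, while Sox10, the lineage factor, measured 5.31, 5.66 and 5.60 against 5.25, 5.06 and 5.11 and did not pass (-0.39, adjusted P = 0.0706).

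Some genes of the repair SC had risen nonetheless, 6 of 18 with 1 lower (median 0.45), of which the normexp correction left 3 and 0. Gfap, an intermediate filament of non-myelinating and repair SCs, measured -4.54, -4.29 and -4.11 at 0 h and -1.35, -0.65 and -0.72 at 3 h (difference 3.40 ± 0.19, adjusted P = 1.5e-07). Its arrays did not overlap between the times. Olig1, a basic helix-loop-helix factor that repair cells express, fell by 1.56, a direction that turned under the normexp correction. Of 17 neurotrophic factors and receptors 3 rose (median 0.00) and 1 under normexp. Of 12 genes of the EGF and neuregulin family 5 rose (median 0.16), with Areg, a ligand of the EGF receptor, at least 4.29-fold higher and Nrg1, the ligand of SC ErbB receptors, at 1.10. This count was 3 without 0 h replicate 1 or 3, and the normexp correction left 0 of these rises.

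Stress genes were led by metal and oxidant responses, of which 8 of 15 rose and none fell (median 0.85). Hmox1, the heme-degrading enzyme, measured -1.07, -0.91 and -1.41 at 0 h and 1.06, 1.76 and 1.81 at 3 h (difference 2.67 ± 0.30, adjusted P = 6.47e-05). Mt2A measured 2.23, 2.07 and 1.74 at 0 h and 5.38, 6.07 and 5.89 at 3 h. Both genes were clear of overlap, and all 8 rises were called whichever array was left out. The other metallothionein Mt1a (3.50), the zinc importer Slc39a14 (2.04) and the mitochondrial dismutase Sod2 (1.34) were among them. Of 14 growth arrest and p53 response genes 7 rose and 1 fell (median 0.20), the fall being lost on leaving out each array except 0 h replicate 1, with the cyclin kinase inhibitor Cdkn1a at 1.42, 1.07 and 1.05 against 3.30, 3.50 and 3.56, a difference of 2.28, and Gadd45b at 1.75 and Gadd45a at 1.07.

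Of 15 heat shock genes 2 rose (median 0.17), with Hspa1a at 1.46, a count that was 4 without 0 h replicate 1 and 1 without 3 h replicate 1 or 2. Of 16 genes of the unfolded protein and amino acid response 3 rose (median 0.10), with the pseudokinase Trib3 at 1.67, and 1 under normexp. Glucocorticoid response genes, which track circulating corticosterone as well as local signals, rose in 11 of 16 cases with 1 lower (median 1.01), and of these Cebpd, Errfi1, Nfkbia, Dusp1, Mt2A and Lcn2 stand in other lists too. Dusp1 lost its call without replicate 3 of either time, 0 h replicate 1 or 3 h replicate 2, and both Dusp1 and Lcn2 lost it under the normexp correction and in a fit to the 6 arrays alone. Fkbp5, the receptor's co-chaperone, measured 3.16, 2.46 and 2.23 at 0 h and 4.48, 4.35 and 4.33 at 3 h (difference 1.77 ± 0.40, adjusted P = 0.00962), and Nr3c1, the receptor itself, was lower (-0.56). The normexp correction left 4 of the rises, without Fkbp5. Clock genes gave 3 rises of 14 (median 0.00), and 1 without replicate 2 of either time or 3 h replicate 3 and 0 under normexp.

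Of 17 genes for making ribosomes 11 rose and none fell (median 0.40, range 0.18 to 1.20), and the arrays of 16 of the 17 did not overlap, against 21% of listed genes whose 3 h arrays all lay higher and 19.8% whose 3 h arrays all lay lower. Gnl3, the nucleolar protein nucleostemin, measured 3.05, 3.19 and 3.05 at 0 h and 4.08, 4.33 and 4.15 at 3 h (difference 1.09 ± 0.09, adjusted P = 9.35e-06). The assembly factor Rrs1 (1.20) and the snoRNP protein Nop58 (1.14) rose by a like amount. Of 16 enzymes of arginine, polyamine and nitric oxide metabolism 9 rose and none fell (median 0.56), among them the endothelial nitric oxide synthase Nos3 (1.45) and the arginine carrier Slc7a1 (1.16). Of 16 prostaglandin and leukotriene genes 2 rose and 1 fell (median 0.06), with no fall without 0 h replicate 2 or 3 or 3 h replicate 1, the inducible Ptgs2 at 1.39 and the prostaglandin E synthase Ptges at 1.87. Of 24 genes of glycolysis and the hypoxia response 6 rose and 1 fell (median 0.26), but 2 or 3 rose without 0 h replicate 2 or 3 or 3 h replicate 2 or 3, 4 without 0 h replicate 1, and the fall was lost on leaving out each array except 3 h replicate 3. The normexp correction left 4 rises among the ribosome factors, 4 in the arginine group and 1 in the glycolysis and hypoxia list.

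The cell cycle genes were the one list of which the larger part fell, 9 of 16 with none higher (median -0.61). Ccnd1, the cyclin of entry into the cycle, measured 3.77, 3.66 and 3.60 at 0 h and 3.02, 2.98 and 2.97 at 3 h (difference -0.69 ± 0.10, adjusted P = 0.000522). The mitotic checkpoint kinases Bub1b (-1.0) and Bub1 (-0.73) fell as well. These 3 kept their call whichever array was left out. The count did not: it was 4 without 0 h replicate 1, 0 h replicate 2 or 3 h replicate 3, 5 without 3 h replicate 2 and 12 without 0 h replicate 3, and the normexp correction left 2, without Bub1b. A fit to the 6 arrays alone gave 4, also without Bub1b, and a limit of 2-fold on the size of change gave 0, so that these 3 genes were not called there.

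The largest falls were less secure than the rises. Slc6a13, a carrier of GABA and taurine, measured -0.15, 0.39 and -0.19 at 0 h and -1.55, -1.60 and -1.86 at 3 h (difference -1.69 ± 0.22, adjusted P = 0.000189), and it alone of the 15 leading falls kept its call under the normexp correction. Of the 14 others, 3 turned direction there, Fgf9, a growth factor (-1.70), Olig1 and Rasgrf2, an exchange factor of Ras (-1.49). In a fit to the 6 arrays alone 8 of the 15 falls lost their call, Ddit4l, Dleu7, Kcnj11, Mybph, Sim2, Slc30a2, Stbd1 and Synpo2, whereas the 14 rises named among the leading ones kept theirs. The synaptic adhesion gene LRRTM1 (-1.62), the HMG box factor Tox3 (-1.71), Dleu7 (-1.90) and the potassium channel Kcnj12 (-1.95) kept their call whichever array was left out. The zinc carrier Slc30a2 (-1.97) lost it without 0 h replicate 3 or 3 h replicate 2, the transcription factor Sim2 (-1.92, with another of its 3 probes at 1.15) without replicate 1 of either time, and Stbd1, a glycogen-binding protein (-1.48), without 3 h replicate 1.

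The largest fall, Mybph, a myosin-binding protein of muscle, measured 2.36, -1.59 and -1.77 at 0 h and -4.54, -2.78 and -4.20 at 3 h (difference -3.51 ± 0.99, adjusted P = 0.0304). Ddit4l, an inhibitor of mTOR signalling (-2.22), Synpo2, an actin-binding protein of muscle (-1.80), and the potassium channel Kcnj11 (-1.52) were also highest on 0 h replicate 1, and like Mybph they lost their call without that array and without 3 h replicate 1 or 3. Skeletal muscle markers moved with the same array. Their summed signal was 2050, 139 and 194 at 0 h against 27.1, 399 and 6.36 at 3 h, with 13 of 14 above background on all 0 h arrays and 12 of 14 on all 3 h arrays, and the actin Acta1 measured 7.57, 3.02 and 3.49 at 0 h against -0.40, 4.56 and -3.91 at 3 h. None of the 14 passed by limma, and their median difference was -3.48. At an unadjusted P under 0.05, 0 of them passed, against 15.6% of listed genes as higher and 16.7% as lower. In all, 8 of the 15 leading falls were highest on 0 h replicate 1 among the 0 h arrays, the others being Kcnj12 (0.73, -0.83 and -0.65), Stbd1 (1.33, -0.10 and -0.77), Sim2 (-1.75, -3.20 and -3.49) and Fgf9. The part of muscle RNA in these 8 falls was not tested.

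Set against 1 h, which was scanned on the same day, 838 listed genes were higher at 3 h (6.52%) and 676 lower (5.26%). The total of 1514 was 798 without 3 h replicate 2 and 866 without 3 h replicate 3, and with the arrays centred on their median 782 were higher and 259 lower. The normexp correction left 177, of which 137 were higher and 40 lower. Both comparisons use the same 3 h arrays, so their values are only set side by side. Of the 27 immediate early factors 11 were lower than at 1 h and 1 was higher. Fos had a mean of 4.34 ± 0.33 (SD, n = 3) at 1 h and 1.74 ± 0.19 at 3 h, a difference of -2.60, and Egr1 of 5.14 ± 0.26 and 3.12 ± 0.41, a difference of -2.02. Junb (-1.15), Atf3 (-1.12), the decay factor Zfp36 (-1.51) and Nfkbiz (-1.18) had likewise fallen from 1 h, and so had Jun (-1.56, adjusted P = 8.57e-05).

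The exception was Fosl1, which was 4.50 higher at 3 h than at 1 h. The neutrophil attractants divided. Cxcl1 stood at 4.56 ± 0.25 at 1 h and 4.63 ± 0.43 at 3 h and Cxcl2 at 2.50 ± 0.20 and 2.26 ± 0.46. Neither passed by limma (adjusted P = 0.884 and 0.623), whereas Cxcl3 was 2.94 higher at 3 h. The monocyte attractant Ccl2 was 1.31 higher at 3 h. Il1rl1 lay at -3.89 ± 0.51 at 1 h, within its 0 h range, and at 2.38 ± 0.63 at 3 h, and Clcf1 and Hmox1 had the same course, at -0.96 ± 0.07 and -1.05 ± 0.36 at 1 h and 2.64 and 2.59 higher at 3 h. Their 0 h means were -3.88 for Il1rl1, -1.02 for Clcf1 and -1.13 for Hmox1.

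By list, 8 of 17 IL-1 family genes, 13 of 17 ribosome biogenesis factors, 7 of 15 antioxidant and metal genes, 6 of 13 coagulation genes, 6 of 14 neutrophil markers and 6 of 16 arginine and polyamine genes were higher at 3 h than at 1 h, and none of these lists held a lower gene. Il1r2 (3.42), Il1rn (2.89), Osmr (2.06), Plaur (2.04), Cdkn1a (2.03), Fkbp5 (2.41) and Gfap (2.06) were higher at 3 h than at 1 h, while Il1b (0.75) and Has1 (-0.19) did not pass. The neutrophil sum was 4.43 to 6.20 at 1 h, below each 3 h array.

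**Figure D4:**
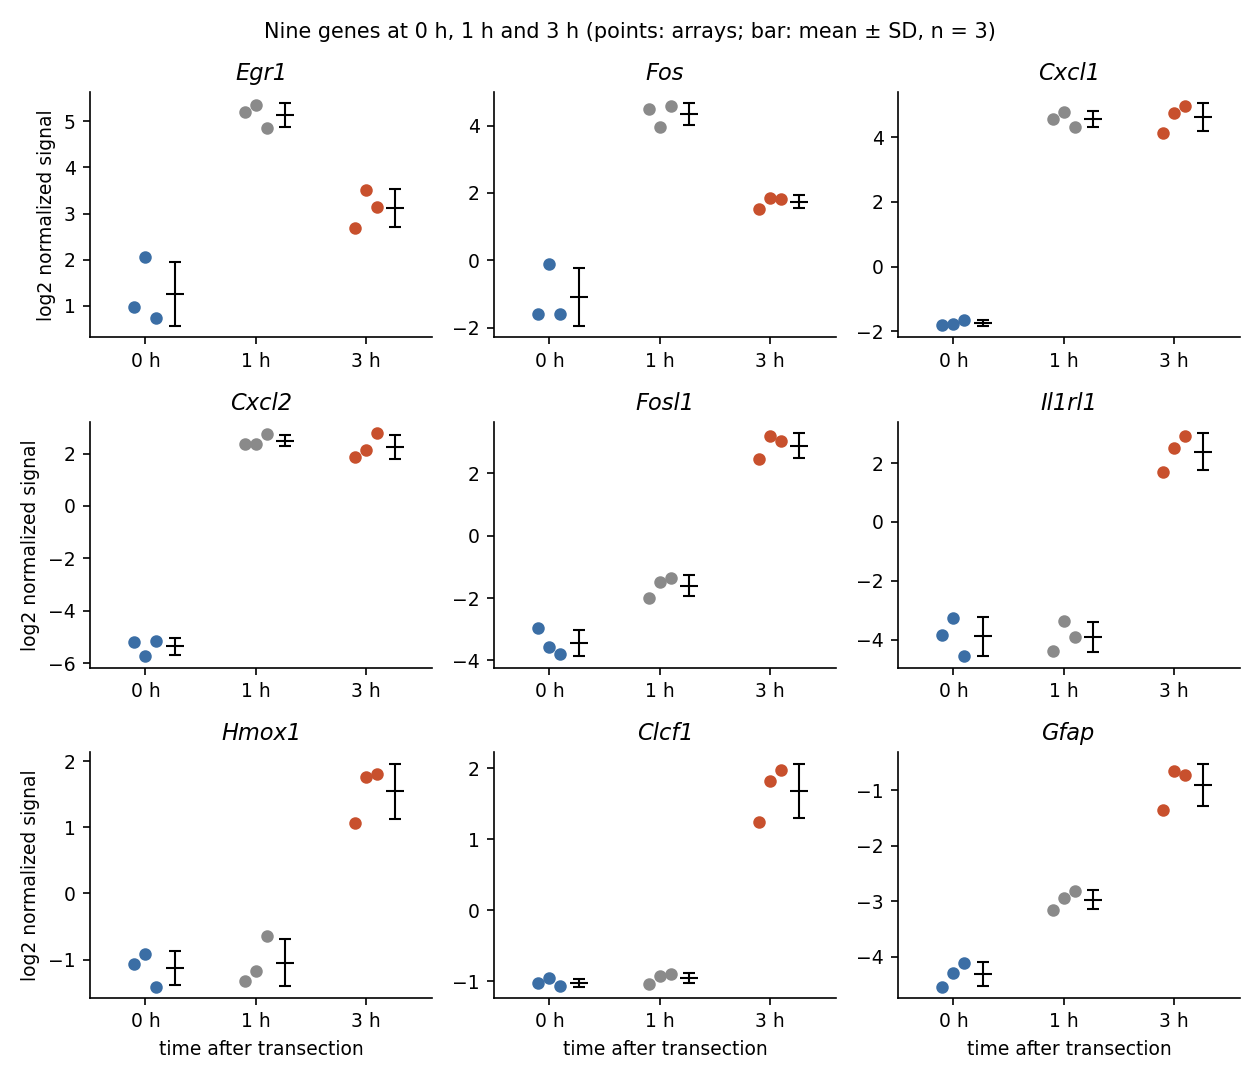
Log2 normalized signal of 9 genes at 0 h, 1 h and 3 h (points: arrays; bar: mean ± SD, n = 3). Egr1 and Fos peak at 1 h, Cxcl1 and Cxcl2 stand high at both 1 h and 3 h, and Fosl1, Il1rl1, Hmox1, Clcf1 and Gfap are highest at 3 h.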

How the data were processed

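Per the labels, total RNA of each proximal nerve sample was amplified, labelled with Cy3 and hybridized to 1 Agilent rat array. The scanner files hold the intensity of each of 45018 spots as the authors deposited it, background-subtracted by Feature Extraction (10.5.1.1 in the file headers). The deposited value table holds log2 values that have the same median, 7.76, on each array and the same order of probes within an array as the scanner intensities, and it was used as an alternative.

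From the scanner files, log2 of the processed signal minus the array's 75th percentile over non-control spots was taken. Spots marked as outliers were left out (58 to 179 an array among the 6), and repeat spots were reduced to their mean. The filter on dim probes kept those that some time point had well above background on each of its 3 arrays (32114 of 41012 probes). Genes were named from the array's accession or symbol, and a listed symbol is one in the reference table of rat genes. The tested probe with the highest mean stands for a gene, and a gene is called if any probe is. limma 3.58.1 (R 4.3.3) was fitted to all 18 arrays with 1 coefficient per time point. On simulated data for this comparison (31910 probes, 200 changed) it found 56% of 2-fold and 80% of 4-fold changes and called 10 unchanged probes. The simulated noise was independent between arrays, without slide or scan day effects, and far fewer probes changed than were called in the data. These figures therefore do not give the power or the false calls of the comparison itself. The number of arrays limits the precision, and arrays give no counting depth. A lower bound on a fold sets the mean of the bright group against, on each array of the dim group, the dimmest signal well above background or the gene's own signal where that is higher.

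Leading genes are the 15 largest called rises and falls among listed genes above background on all 6 arrays with no overlap between times, and the 10 largest lower bounds. The other genes named are members of 46 lists, of which 619 were tested, or named by the study. The members, lists and tests were chosen with earlier results of these data known, so a list's count is a description and no set was tested. Marker sums leave out a gene whose spot is missing on any array. Alternatives were another background correction, normalization, filter, variance model and call rule, the replicate number and the slide as blocks, and each of the 6 arrays left out. The values of some single genes are not reported here, although counts include these genes.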

Additional observations from a re-analysis of the deposited data

How the results depend on the processing

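Genes named in the text kept their direction except where given here, and which direction held more called gene names turned in 5 settings (median centring, quantile normalization, the deposited table, array weights and without 0 h replicate 1). Among listed genes (1131 higher, 1084 lower) it turned in these 5 and also with the filter on all 6 arrays (1137 and 1166), with a trend and robust prior (1254 and 1270) and without 3 h replicate 3 (762 and 864). The normexp background correction, which raised the median difference of all genes by 0.44, called 1057 gene names (606 higher, 451 lower) against 4022 (2099 and 1926), 683 listed genes (386 and 297) against 2212, 110 list members (98 and 12) against 220 (186 and 34), and 177 genes against 1 h (137 and 40) against 1514. A call by adjusted P under 0.05 with a change of at least 2-fold gave 1038 (850 and 188), 586 listed genes (480 and 106), 130 list members with 2 lower, and 338 against 1 h (253 and 85). A fit to the 6 arrays of 0 h and 3 h alone gave 2471 with 779 lower, 1325 listed genes with 429 lower, and 16 list members lower. Array weights gave 6069 with 3084 lower, 1746 listed genes lower, and 1117 lower than at 1 h, and centring on the median gave 259 lower than at 1 h. Why these settings differ was not tested.

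Under normexp, Fgf9 (0.31), Olig1 (0.17) and Rasgrf2 (0.43) turned direction. Daxx, which lies near 0 and is called nowhere, ran from -0.21 to 0.07 with an array left out (above 0 without 0 h replicate 3 or 3 h replicate 1 or 2). Of 128 genes named in the text and called by their main probe, 81 kept the call in each of the 18 settings that tested them (the filter on all 6 arrays tested 115 of the 137 named) and 47 lost it in at least 1, 33 of the genes by the normexp correction in the same direction.

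Leaving out each array in turn gave 2114 to 3469 called gene names (1225 to 1954 higher, 889 to 1753 lower), 1216 to 1934 listed genes (700 to 1105 and 516 to 967), 163 to 212 list members (145 to 187 and 16 to 32), 120 to 126 of the 129 genes named and called by any probe, and 798 to 1524 genes against 1 h (466 to 845 and 285 to 679). The lowest totals of gene names, listed genes, list members and genes against 1 h came without 3 h replicate 2.

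The replicate numbers did not pair the samples, since the deviations of same-numbered arrays correlated at -0.25, -0.22 and 0.06, and with the replicate number as a block 4308 gene names were called (2280 higher, 2030 lower). The block ended the call of Ddit4l among the genes named. Slide as a random block gave 4189, with a consensus correlation of -0.01.

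What limits these results is that 0 h and 3 h lie on separate slides and scan days, that 1 h and 3 h lie on separate slides, and that each group has 3 arrays.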
